A study of Homo sapiens with 10 samples.

Results

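The HOX cluster genes are the homeobox genes whose symbol in the expression table is HOX followed by a cluster letter, A to D, and a paralog number. The rule found 39 genes among the 62656 of the table: 11 in the HOXA cluster, 10 in HOXB, 9 in HOXC and 9 in HOXD. They were measured by RNA sequencing in PC3, a human epithelial cell line from a bone metastasis of prostate cancer. The cells were starved overnight and then received for 24 h either the vehicle DMSO (5 libraries) or 1 µM GW3965 (5 libraries), a synthetic agonist of the liver X receptors (LXR), nuclear receptors that switch on cholesterol efflux genes. PC3 is a single established line, and the labels do not say whether the 5 libraries of a group came from separate cultures, so each p-value measures the spread between these libraries, which may be technical.

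The libraries held between 30432061 and 41639332 reads counted in genes, recovered from the steps of the deposited values. Values are RPKM, reads per kilobase of gene scaled to the depth of the library. They can be compared between genes, with less certainty for genes that share exon bases with a neighbour. The epithelial label was borne out in part: KRT19, KRT18 and KRT8, the keratins of simple epithelium, had means of 140, 49.8 and 36.8 RPKM with DMSO, while the epithelial cadherin CDH1 had 0.249 and the mesenchymal filament gene VIM 65.6. The prostate-specific antigen gene KLK3 had 0 reads in the 10 libraries. Of the markers of other cells, the leukocyte gene PTPRC and the fibroblast genes DCN, LUM and PDGFRB had at most 0.04 RPKM with DMSO. The endothelial gene PECAM1 had 0.639 and the collagen gene COL1A1 1.00. Of the 12 markers tested, 0 passed the threshold between the groups with limma, and 0 had an unadjusted p under 0.05. The 3 known targets that check the agonist, ABCA1, ABCG1 and SREBF1, all passed the threshold and were higher with GW3965.

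HOX genes encode transcription factors with a homeodomain that tell cells their position along the body axis. In each cluster the genes stand in a row in the order of their paralog numbers: low numbers at the end called 3′, active first and toward the head, and high numbers at the 5′ end, active last and toward the tail. Posterior genes, above all HOXB13, are known to pattern the urogenital tract, and HOXB13 stays active in the adult prostate. Polycomb complexes keep silent stretches of a cluster shut, trithorax complexes of the MLL family keep active ones open, and retinoic acid switches on the 3′ genes in the embryo.

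The promoters of HOX genes are often rich in CpG dinucleotides, and HOX genes at both ends of the range of expression are shown here for comparison. RefSeq sequences on GRCh38.p14 gave 27 promoter windows, 250 bases up to the annotated start, for 20 of the 39 genes. Their median was 19 CpG, against 11 over all 35116 windows, at nearly the same GC content (58.8% and 58.0%). Shown are the second highest HOX gene of PC3, HOXA13, its paralog HOXD13, which was close to silent, and HOXB1, which had no read. HOXB13, the highest, had no window. Each sequence reads 5′ to 3′ on the gene's strand, with every CpG in capitals. HOXA13 lies on the minus strand (chr7:27200092-27200341), HOXD13 on the plus strand (chr2:176092471-176092720) and HOXB1 on the minus strand (chr17:48531012-48531261).
HOXA13: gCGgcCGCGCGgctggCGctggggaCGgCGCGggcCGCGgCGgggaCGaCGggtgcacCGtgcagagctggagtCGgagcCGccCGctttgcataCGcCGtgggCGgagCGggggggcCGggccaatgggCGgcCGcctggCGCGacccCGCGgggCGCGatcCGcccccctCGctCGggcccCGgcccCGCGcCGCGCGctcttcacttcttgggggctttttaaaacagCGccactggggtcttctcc
HOXD13: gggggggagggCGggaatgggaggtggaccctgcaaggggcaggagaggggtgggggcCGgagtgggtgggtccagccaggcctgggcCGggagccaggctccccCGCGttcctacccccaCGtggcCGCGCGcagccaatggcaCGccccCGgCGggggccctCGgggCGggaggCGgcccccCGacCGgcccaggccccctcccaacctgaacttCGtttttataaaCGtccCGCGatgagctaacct
HOXB1: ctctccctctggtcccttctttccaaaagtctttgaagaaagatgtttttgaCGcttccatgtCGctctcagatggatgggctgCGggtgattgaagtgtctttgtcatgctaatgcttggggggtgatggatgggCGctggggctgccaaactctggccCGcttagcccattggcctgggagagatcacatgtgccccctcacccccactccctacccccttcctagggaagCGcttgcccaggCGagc
The HOXA13 window holds 40 CpG, more than 97.8% of all windows and the most of any HOX window. The HOXD13 window holds 21 and the HOXB1 window 7, more than 69.8% and 41.1% of all windows. Whether CpG number goes with level was not tested, and some windows not shown run against such an order. Those of HOXD1 and HOXA7 hold 31 and 28 CpG, at 0.0145 and 0.0126 RPKM with DMSO. Those of HOXA11 and HOXD4 hold 11 and 4, at 2.40 and 1.38 RPKM. The hexamer AGGTCA, one copy of the repeat that LXR binds, was sought on both strands: it was in 0 of the 27 HOX windows and in 12.1% of all windows. The letters TATAAA, the core of a box bound at the start of transcription, were in 5 of the 27 HOX windows (18.5%) and in 10.7% of all windows on either strand, and on the gene's own strand in 3 HOX windows and in 6.80% of all windows. HOXC4 and HOXC5 share a window and HOXA3 has 7 and HOXA10 2, so the windows are not independent. These matches describe letters and not sites of binding.

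The baseline HOX code of PC3 was dominated by a single gene. With DMSO, HOXB13 had 191 ± 20.5 RPKM (SD, n = 5), and 245 genes, 0.391% of the table, had a higher DMSO mean. The 39 HOX genes summed to 233.1 ± 20.4 RPKM, of which HOXB13 made 82.0% ± 1.80 (SD, n = 5). HOXA13, the posterior gene of limb and urogenital development, followed with 14.1 ± 1.73 RPKM, and HOXA9 with 5.21 ± 0.528. HOXB13 was 13.6 times HOXA13, and HOXA13 was 2.71 times HOXA9. The DMSO ranges of these 3 genes did not overlap with one another or with the next gene in the order.

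The remaining 36 genes were far lower. Between 1 and 5 RPKM lay 9 genes: HOXA10 and HOXA11 (each 2.40), HOXC6 (1.90), HOXA3 (1.86), HOXB5 (1.85), HOXB6 (1.63), HOXC13 (1.48), HOXD4 (1.38) and HOXB3 (1.14). No neighbours in this stretch of the order were separated by more than the spread of their 5 DMSO libraries. Between 0.5 and 1 RPKM lay 4 genes, HOXA5 (0.768), HOXA4 (0.624), HOXA2 (0.609) and HOXC8 (0.579), and HOXA5 lay below HOXB3 without overlap. Another 12 genes lay between 0.1 and 0.5 RPKM and 11 under 0.1, and from HOXA5 down every gene overlapped in range with the next. In all, 16 of 39 HOX genes reached 0.5 RPKM with DMSO, beside 32.7% of the genes in the table. The table also holds non-coding genes and pseudogenes, and 15119 of its 62656 genes were at 0 in every library. The 2 shares are therefore not of like sets. This is a bulk measurement, so a level cannot be told apart into the share of cells that express a gene and the RNA per cell.

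**Figure D1:**
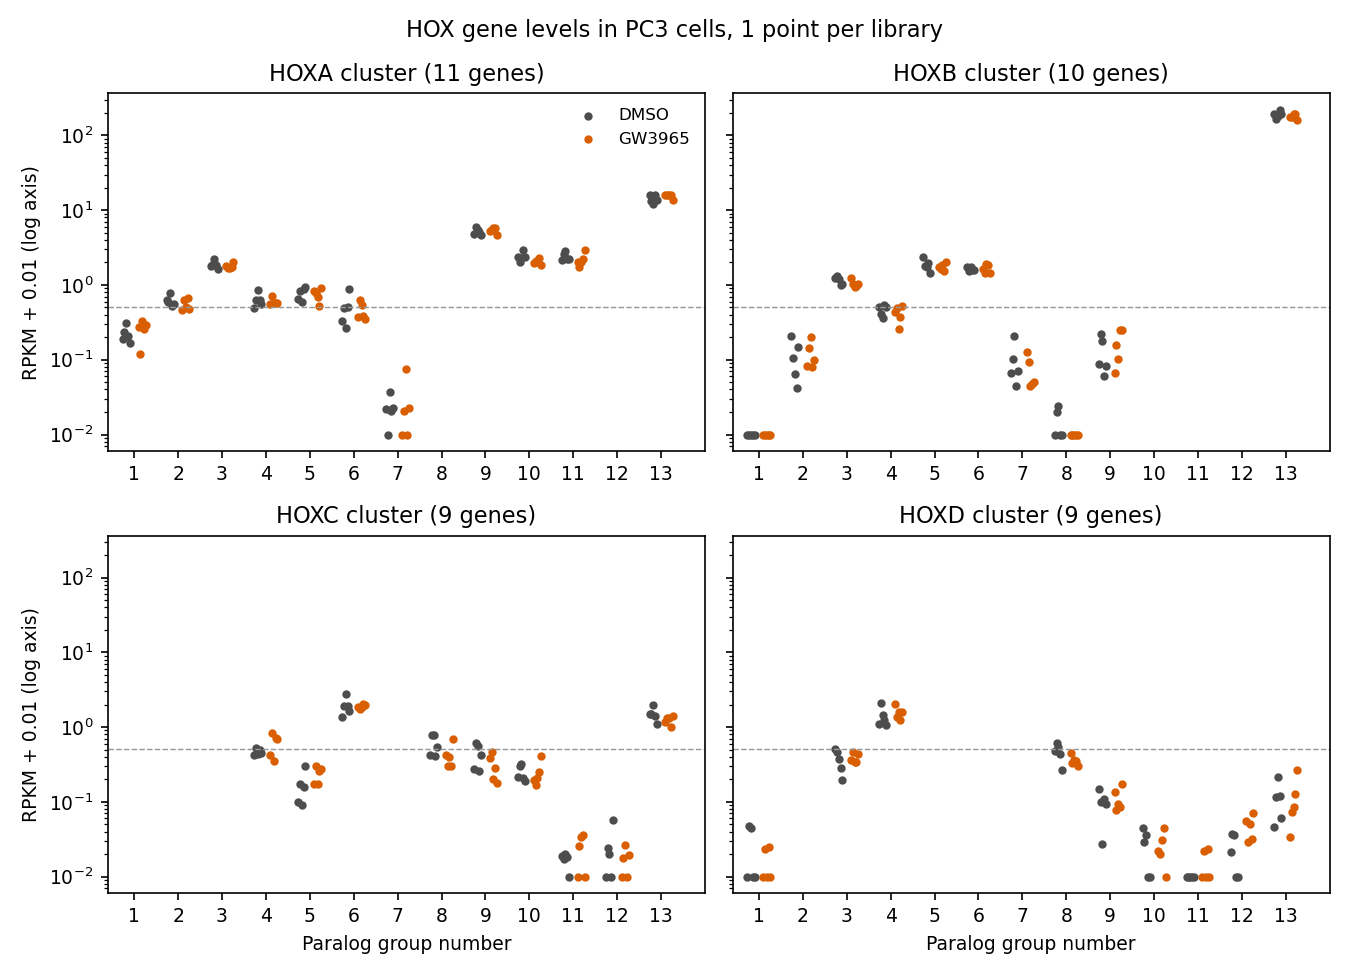
RPKM + 0.01 (log axis) of the 39 HOX genes in the 5 DMSO (grey) and 5 GW3965 (orange) libraries, against paralog number, with a panel for each cluster, 1 point per library and a dashed line at the limit of 0.5 RPKM. At paralog number 13 the DMSO means are 191 RPKM in HOXB, 14.1 in HOXA, 1.48 in HOXC and 0.102 in HOXD, and the points of both groups overlap for each of the 16 tested genes.

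The clusters were used unequally. The HOXA cluster (GRCh38 chromosome 7, GENCODE 29, from 27092993 to 27200106) had 8 of its 11 genes at 0.5 RPKM or more and a summed level of 28.7 ± 1.42 RPKM (SD, n = 5). The HOXB cluster (chromosome 17, 48528526 to 48729178) summed to 196.7 ± 20.4 RPKM, but without HOXB13 the other 9 genes summed to 5.38 ± 0.501. The HOXC cluster (chromosome 12, 53938765 to 54056030) summed to 5.24 ± 1.06 RPKM with 3 of 9 genes at 0.5 or more, HOXC6, HOXC13 and HOXC8. The HOXD cluster (chromosome 2, 176092891 to 176190907) summed to 2.42 ± 0.663 RPKM, and HOXD4 was the only one of its 9 genes to reach 0.5; the next were HOXD8 with 0.456 and HOXD3 with 0.355. The HOXA sum and the HOXB sum without HOXB13 lay apart, while the HOXB sum without HOXB13 and the HOXC sum differed by less than the spread between libraries.

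Level went with position most closely in the HOXA cluster. Across the 11 HOXA genes Spearman's rho of paralog number with the DMSO mean was 0.65, with the highest levels at 13, 9, 10 and 11, the 5′ side. It was 0.32 over 10 HOXB genes, -0.23 over 9 HOXC genes and -0.38 over 9 HOXD genes. These are descriptions across genes measured in the same libraries, and genes are not replicates. The order within HOXA had a gap: HOXA7, which lies between HOXA6 and HOXA9, had 0 to 6 reads per library and 0.013 RPKM with DMSO, beside 0.481 for HOXA6 and 5.21 for HOXA9. Among the 4 genes numbered 13, HOXB13 was 13.6 times HOXA13 and 129.3 times HOXC13, and HOXD13 had 0.0360 to 0.205 RPKM in the DMSO libraries.

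HOXB13 stood apart from its cluster in distance as well as in level. Its annotated start lies 102.8 kb from that of HOXB9, the nearest annotated start of a HOX gene being that of a long HOXB7 transcript at 95.6 kb. HOXB9 had 0.115 RPKM with DMSO, so HOXB13 was 1659 times higher. Levels near HOXB13 differed by kind of gene. MIR3185, a microRNA gene, and RF02133 and RF02132, annotated as miscellaneous RNA, start 4.70, 5.49 and 5.99 kb from it and had 0 reads with DMSO. How well these libraries catch such RNAs was not tested, so 0 reads need not mean that they are silent. PRAC1 and PRAC2, small genes known from prostate, rectum and colon, start 6.66 and 6.01 kb from HOXB13 and had 90.8 ± 13.7 and 19.4 ± 1.02 RPKM (SD, n = 5). The long non-coding RNA gene AC091179.1, on the other side at -3.91 kb, had 15.0 RPKM. Past the gap the highest HOXB genes were HOXB5 (1.85), HOXB6 (1.63) and HOXB3 (1.14), in the middle of the cluster, and HOXB1 at its end had 0 reads.

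The reads behind these levels set their precision. HOXB13 had 16025 to 25542 reads per library and HOXA13 1840 to 3193, HOXA9 455 to 769, HOXD4 39 to 100 and HOXC4 36 to 91. Chi-square per degree of freedom compares the variance of reads between libraries of a group with that of counting error alone. This ratio of variances was 176 for HOXB13, 24.6 for HOXA13, 8.48 for HOXC6 and 1.03 for HOXA4. It was over 2 in 12 of the 16 genes tested below, so for these genes the spread between libraries was wider than counting error. The ratio grows with the number of reads and does not rank genes by relative spread. With DMSO the SD was 20.5 around 191 RPKM for HOXB13 and 0.133 around 0.624 for HOXA4. HOXB1 had 0 reads in the 10 libraries, and HOXB8, HOXC11, HOXD1, HOXD10 and HOXD11 had at most 3 in any library. A count of 0 allows up to 3 reads, for HOXB1 0.0347 RPKM in the library of median depth at its GENCODE 29 length, and such limits cover counting error only.

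Many HOX genes share exon bases with a neighbour in GENCODE 29, and this bears on their levels. It held for 25 of the 39 genes, 19 with a gene on the opposite strand and 18 with one on the same strand. HOXD4 shared 80.5% of its exon bases with AC009336.2 on its own strand, and HOXD3 62.2%, so the level of HOXD4, the only HOXD gene over 0.5 RPKM, is uncertain. HOXA7 shared 62.5% with HOXA-AS3 on the opposite strand, HOXA11 31.1% with HOXA11-AS and HOXA10 16.4% with HOXA10-AS. HOXB13 shared none, and HOXA13 1.7% with HOTTIP. The libraries kept the strand of the RNA, but the strand setting used in counting is not given in the sources used here, so sense and antisense reads may not have been told apart. The implied gene length equalled that of GENCODE 29 for 6 of the 39 genes, so these shares hold for that release only.

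The comparison of GW3965 with DMSO asked whether LXR activation moved the HOX code. HOXB13 had 194, 165, 182, 221 and 195 RPKM in DMSO libraries 1 to 5 and 176, 178, 191, 193 and 163 in GW3965 libraries 1 to 5. The groups overlapped, with the highest library in DMSO and the lowest in GW3965, and the log2 fold change was -0.08 (SE 0.08, 95% interval -0.26 to 0.09, limma adjusted p = 0.915). HOXB13 made 82.0% of the HOX sum with DMSO and 81.0% ± 0.929 (SD, n = 5) with GW3965. The HOX sum was 233.1 ± 20.4 RPKM with DMSO and 222.1 ± 12.7 with GW3965, its libraries running from 207.5 to 263.8 and from 204.1 to 235.3.

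Of the 39 genes, 16 had a mean of at least 0.5 RPKM over the 10 libraries and were tested with limma on log2(RPKM + 0.1), together with all 20402 genes that met this limit. The test called 0 of the 16 at an adjusted p under 0.05. The share of all tested genes called was 0.157%, with 0.147% called higher and 0.0098% lower. One of the 16, HOXA10, had an unadjusted p under 0.05, beside 6.99% of all tested genes, and voom on the recovered reads also called 0. With GW3965, 6 of the 16 had a higher and 10 a lower mean on the log2 scale, while 51.1% of all tested genes were higher. The median log2 fold change of the 16 was -0.06 beside 0.0034 over all tested genes. In 0 of the 16 did the groups of libraries fail to overlap, beside 1.84% of all tested genes. The 16 fold changes ran from -0.23 for HOXC13 to 0.27 for HOXC4, and 12 of the 16 intervals lay within 0.5 of 0 on either side.

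**Figure D2:**
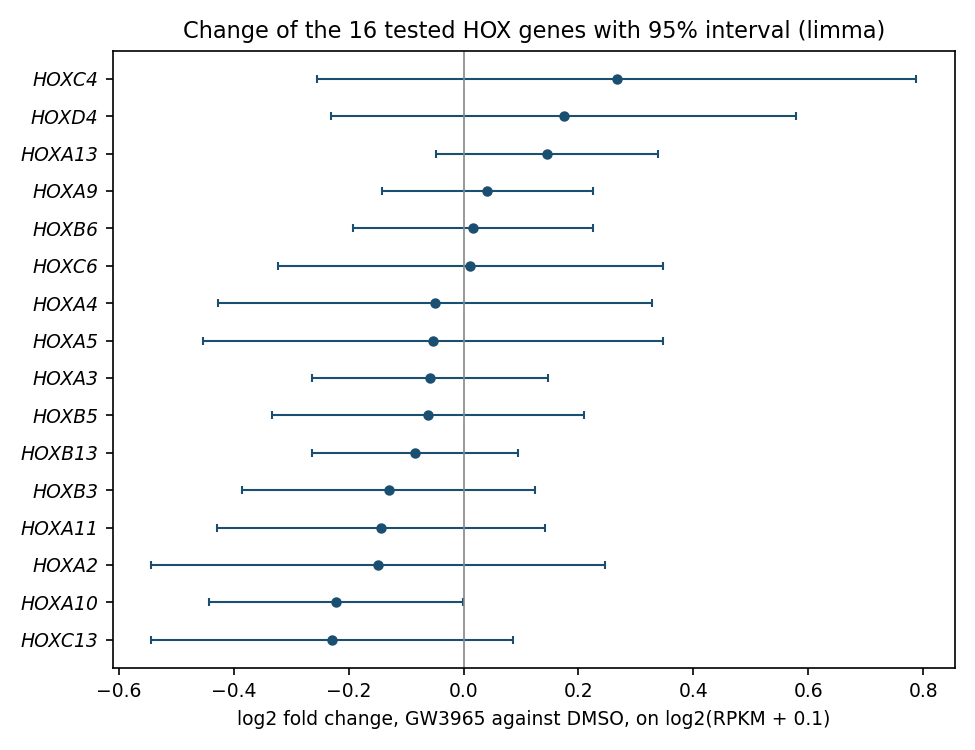
Log2 fold change of GW3965 against DMSO (points) with 95% limma intervals (bars) for the 16 tested HOX genes, on the log2(RPKM + 0.1) scale. The fold changes run from -0.23 to 0.27, 0 passed the adjusted threshold, and of the 16 intervals the only one that leaves out 0 is that of HOXA10.

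HOXA10, a posterior gene of uterus and blood development, had 2.35, 2.03, 2.28, 2.97 and 2.39 RPKM with DMSO. With GW3965 it had 1.94, 2.07, 2.02, 2.32 and 1.85 RPKM. The 3 lowest libraries were all GW3965 and the highest was DMSO library 4, but the groups overlapped between 2.03 and 2.32. The log2 fold change was -0.22 (SE 0.10, unadjusted p = 0.0487, limma adjusted p = 0.711), the lowest adjusted p of the 16 genes.

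HOXA13 had 15.8, 13.1, 12.0, 16 and 13.7 RPKM with DMSO and 16.2, 15.8, 16.1, 16.1 and 13.7 with GW3965. GW3965 libraries 1 to 4 lay close together, 3 of them just above the DMSO range and library 2 inside it, and the fifth lay with the lower DMSO libraries. The log2 fold change was 0.15 (SE 0.09, 95% interval -0.05 to 0.34, limma adjusted p = 0.817). HOXA9, a regulator of blood stem cells, had 4.84, 5.98, 5.42, 5.16 and 4.63 RPKM with DMSO and 5.28, 5.35, 5.73, 5.75 and 4.66 with GW3965, a log2 fold change of 0.04 (SE 0.08). Its DMSO range enclosed every GW3965 library.

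HOXA11, needed for forelimb and uterus, had 2.18, 2.58, 2.80, 2.23 and 2.2 RPKM with DMSO and 2.03, 1.72, 2.03, 2.23 and 2.91 with GW3965. Both the lowest and the highest library were GW3965, and the log2 fold change was -0.14 (SE 0.13). The anterior and central genes of the cluster moved less than their spread: HOXA3 had means of 1.86 and 1.78 RPKM, HOXA5 0.768 and 0.738, HOXA4 0.624 and 0.593 and HOXA2 0.609 and 0.541, with DMSO and GW3965 in turn. The HOXA sum was 28.7 ± 1.42 RPKM with DMSO and 29.5 ± 1.08 with GW3965 (SD, n = 5).

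**Figure D3:**
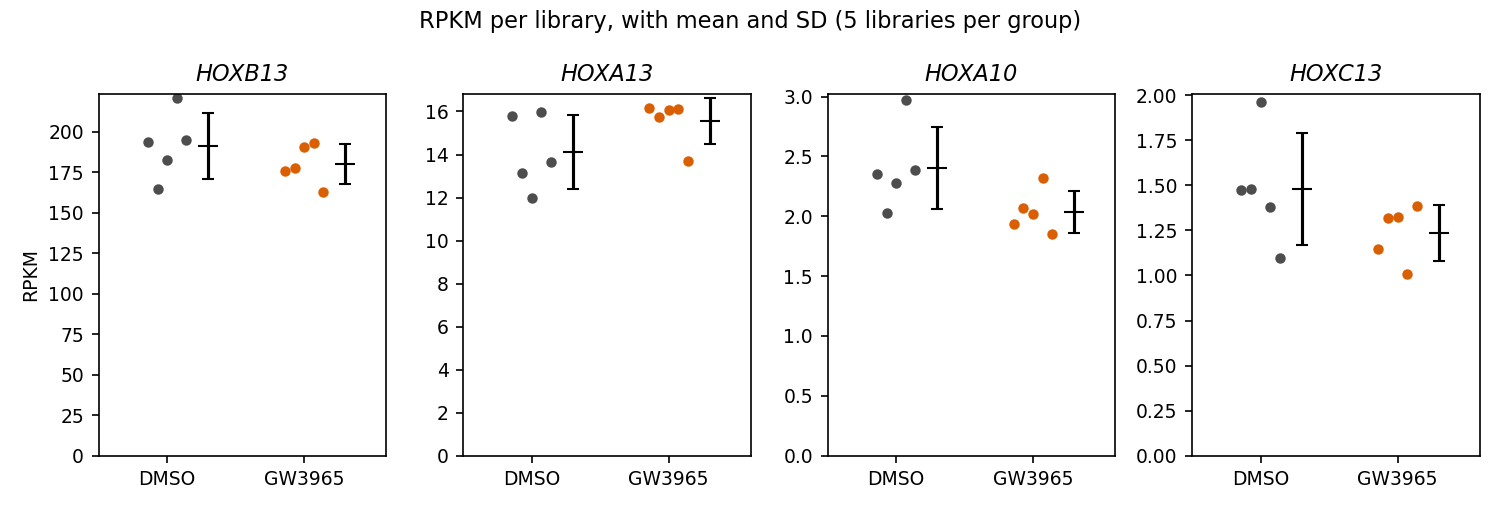
RPKM of HOXB13, HOXA13, HOXA10 and HOXC13 in each of the 5 DMSO (grey) and 5 GW3965 (orange) libraries (points, linear axes from 0), with the mean and SD of each group beside them. The groups overlap in all 4 panels, and 4 of the 5 GW3965 libraries of HOXA13 lie between 15.8 and 16.2 RPKM with the remaining one at 13.7.

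In the HOXB cluster, HOXB5 had 2.34, 1.79, 1.72, 1.96 and 1.44 RPKM with DMSO and 1.74, 1.64, 1.86, 1.52 and 2.03 with GW3965 (log2 fold change -0.06, SE 0.12). HOXB6 had 1.74, 1.51, 1.75, 1.56 and 1.56 with DMSO and 1.65, 1.44, 1.89, 1.82 and 1.46 with GW3965 (log2 fold change 0.02, SE 0.09). HOXB3 had 1.25, 1.30, 1.18, 0.991 and 1.01 with DMSO and 1.23, 1.03, 0.932, 0.947 and 1.03 with GW3965 (log2 fold change -0.13, SE 0.12). The groups overlapped for all 3, and the HOXB sum without HOXB13 was 5.38 ± 0.501 RPKM with DMSO and 5.18 ± 0.189 with GW3965 (SD, n = 5).

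In the HOXC cluster, HOXC13, a gene of hair and nail formation, had 1.47, 1.48, 1.96, 1.38 and 1.10 RPKM with DMSO and 1.15, 1.32, 1.32, 1.01 and 1.39 with GW3965. DMSO library 3 was the highest, GW3965 library 4 the lowest, and the log2 fold change was -0.23 (SE 0.14, 95% interval -0.54 to 0.09, limma adjusted p = 0.829). HOXC6, which is known to be raised in prostate cancer, had 1.34, 1.88, 2.75, 1.88 and 1.65 with DMSO and 1.82, 1.73, 1.82, 2.04 and 1.94 with GW3965, a log2 fold change of 0.01 (SE 0.15). Its DMSO libraries held both extremes. HOXC4 had 0.419 to 0.512 RPKM with DMSO and 0.414, 0.823, 0.344, 0.704 and 0.680 with GW3965. Of its GW3965 libraries 3 lay above and 2 below the whole DMSO range, and the interval was the widest of the 16, from -0.26 to 0.79 around a log2 fold change of 0.27 (limma adjusted p = 0.905). In GENCODE 29, HOXC4 and HOXC6 share 484 exon bases.

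HOXC4 and HOXC8 stood just inside and just outside the limit of 0.5 RPKM, with means over the 10 libraries of 0.524 and 0.496. HOXC8 had 0.419, 0.771, 0.765, 0.402 and 0.536 RPKM with DMSO and 0.414, 0.290, 0.393, 0.292 and 0.677 with GW3965. Its DMSO libraries 2 and 3 were the highest of the 10, and GW3965 library 5 came next. HOXD4 had 1.10, 2.08, 1.45, 1.23 and 1.06 with DMSO and 2.02, 1.37, 1.56, 1.22 and 1.58 with GW3965, a log2 fold change of 0.17 (SE 0.18). One library of each group reached 2 RPKM and the groups overlapped almost wholly.

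The other 23 genes were under the limit and were not in the fit. Of these, 17 had more than 3 reads in at least 1 library and were compared by a two-sided exact permutation test of the difference in mean RPKM, and 6 were left without a test. The lowest p was that of HOXD12, 0.0476 by the exact permutation test (adjusted p = 0.675 over the 17). With 5 libraries against 5 the smallest p this test can give is 0.00794, or 0.135 once adjusted for a single gene among 17, so no gene could pass alone and the test says little of these genes. HOXD12 had 6 reads in the 5 DMSO libraries and 17 in the 5 GW3965 libraries, and from 0 to 0.0275 RPKM in the former and 0.0194 to 0.0599 in the latter.

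The highest library of each group was counted over the 16 tested genes. DMSO library 3 was the highest of its group for 7 of the 16 genes, library 2 for 4, library 4 for 3 and libraries 1 and 5 for 1 each. Among the GW3965 libraries, 4 and 5 were each the highest for 5 genes, library 1 for 3, library 2 for 2 and library 3 for 1. In fits without each library in turn, 0 HOX genes passed the threshold.

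The genes that work with HOX proteins or on HOX clusters were tested in the same fit, and 0 passed the threshold in any of these lists. Of 9 TALE homeodomain cofactors, which bind DNA together with HOX proteins, 6 were tested, 2 higher and 4 lower, with a median log2 fold change of -0.02. The highest were PBX2 (13.8 RPKM with DMSO and 13.7 with GW3965), PKNOX1 (2.28 and 2.21) and PBX3 (1.76 and 1.73). All 23 Polycomb genes were tested, 10 higher and 13 lower, with a median of -0.03, led in level by PHC2 (38.3 RPKM with DMSO), CBX6 (19.9) and RBBP7 (16.4). CBX2, a Polycomb subunit that binds the methylated histone, had 4.40 ± 0.5 RPKM with DMSO and 3.64 ± 0.241 with GW3965 (log2 fold change -0.26, SE 0.09, limma adjusted p = 0.482). Of 14 MLL and trithorax genes, all tested, 4 were higher and 10 lower, with a median of -0.03, and RBBP5 (13.4 RPKM with DMSO), MEN1 (12.0) and WDR5 (9.51) were the highest. DOT1L, a histone methyltransferase, had 4.0 ± 0.445 and 3.34 ± 0.333 RPKM (log2 fold change -0.25, SE 0.09, limma adjusted p = 0.568).

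The non-coding RNAs and PRAC genes of the clusters were low apart from PRAC1 and PRAC2. Of 27 listed, 26 were in the table and 9 were tested, 6 higher and 3 lower, with a median log2 fold change of 0.03. PRAC1 had 90.8 ± 13.7 RPKM with DMSO and 102 ± 6.81 with GW3965 (SD, n = 5; log2 fold change 0.18, SE 0.10, limma adjusted p = 0.784), and PRAC2 19.4 ± 1.02 and 18.3 ± 1.99. HOTTIP, the RNA transcribed beside HOXA13 and known to keep the 5′ HOXA genes active, was the third with 1.96 and 1.95 RPKM. HOTAIR, from the HOXC cluster, had 0.0352 RPKM with DMSO. The hairpin genes MIR10A, MIR196A1, MIR196A2 and MIR196B had 0 reads in every library. MIR10A shares 110 exon bases with HOXB4, and MIR196B 84 with HOXA9, on the same strand. As for MIR3185, the catch of such short RNAs was not tested, so 0 reads need not mean silence.

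In the retinoid pathway, 7 of 16 genes were tested, 2 higher and 5 lower, with a median log2 fold change of -0.07. DHRS3, a retinaldehyde reductase, had 19.4 ± 2.13 RPKM with DMSO and 14.2 ± 2.09 with GW3965 (SD, n = 5; log2 fold change -0.45, SE 0.11, limma adjusted p = 0.210). CRABP2, which carries retinoic acid to its receptor, had 17.0 ± 1.64 and 14.1 ± 1.30 RPKM (log2 fold change -0.27, SE 0.09, limma adjusted p = 0.446). ALDH1A3, which makes retinoic acid, was the highest of the list with 62.2 and 58.7 RPKM. Of the 9 ParaHox, EVX and MNX genes, relatives of the HOX genes outside or at the end of the clusters, MNX1 alone was tested, with 0.688 and 0.661 RPKM. Of 10 genes flanking the clusters 9 were tested, 8 higher and 1 lower, with a median of 0.09, while 51.1% of all tested genes were higher. The autophagy receptor gene CALCOCO2, beside HOXB, had 11.9 ± 0.877 RPKM with DMSO and 13.7 ± 0.161 with GW3965, groups that did not overlap (log2 fold change 0.20, SE 0.06, limma adjusted p = 0.342). The groups did not overlap in 1.84% of all tested genes.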

How the data were processed

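Total RNA of PC3 cells, 5 DMSO and 5 GW3965 libraries, was depleted of ribosomal RNA and sequenced in single 50-base reads. Per the labels, reads were processed against hg38 with bcl2fastq 2.20.0.422, cutadapt, HISAT2 2.1.0, HTSeq 0.11.2 and DESeq2 1.22.2. The methods of the study name another HISAT2 version and a mouse build, although the gene identifiers are human, and the labels call the molecule polyA RNA. The annotation release and the strand setting are not given in the sources used here. The authors deposited a single table of RPKM values, in which reads were divided by gene length and by a library factor that equals a median-of-ratios size factor.

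Whole reads were recovered from the steps of the RPKM values, to a tolerance of 0.001 reads, for 100.0% of values above 0. Reads served for depth, for the spread against counting error, for the limits of low counts, for the choice of low genes to test and for an alternative test. Genes averaging 0.5 RPKM or more over the libraries were fitted with limma 3.58.1 (R 4.3.3, trend) on log2(RPKM + 0.1), a scale that understates changes of low genes, with Benjamini-Hochberg adjustment over all 20402 genes and a threshold of 0.05, two-sided. HOX genes under this limit with more than 3 reads in at least 1 library had an exact permutation test (Python 3.11.15), adjusted with scipy 1.17.1. The smallest p of this test with 5 against 5 is 0.00794. Neighbours and shared exon bases came from GENCODE 29 and promoters from RefSeq. The fit was tested on simulated data, where it recovered 14 of 67 genes changed by 0.5 on the log2 scale. It recovered 55 of 65 changed by 1 and 59 of 62 changed by 2, with 5 false calls among 133. Smaller changes, such as those of the tested HOX genes, were not simulated. Alternatives were another pseudocount, filter, scaling or weighting, a replicate block, voom and each library left out.

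HOX genes with at least 0.5 RPKM in either group, the 3 highest of each cluster, genes at the limit and those with an unadjusted p under 0.05 were named, and of each other list the 3 highest and those with such a p. HOXB8, HOXC11, HOXD1, HOXD10, HOXD11, HOXB1, HOXA6, HOXA7, HOXB9, HOXD12, HOXD13, HOTAIR, the hairpin genes, MIR3185, RF02133, RF02132 and AC091179.1 were named after their values were seen. The members and lists were chosen with earlier results of these data known.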

Additional observations from a re-analysis of the deposited data

Results flagged for a closer look

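In 2 of the 32 groups of 5 libraries checked for the 16 tested HOX genes, 1 library stood far from the others by Dixon's ratio, which divides its gap to the nearest library by the range of the group and has a limit of 0.71. Chance alone passes that limit in about 1.6 of 32 groups. HOXA13 was lowest in GW3965 library 5, with 13.7 RPKM beside 15.8 to 16.2 in the other 4 and a ratio of 0.846. Without that library the log2 fold change of HOXA13 was 0.19 (limma adjusted p = 0.834), and it stayed short of the adjusted threshold. HOXA4 was highest in GW3965 library 2, with 0.709 RPKM beside 0.545 to 0.572 and a ratio of 0.817.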

How the results depend on the processing

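Under each of the 20 alternative settings, 0 tested HOX genes passed the threshold, the lowest adjusted p being 0.431 (HOXA13 with library weights). Of 316 fold changes of single HOX genes under these settings, 303 kept their direction and 13, of 6 genes, turned, with fold changes near 0 throughout. HOXC6 turned to -0.013 with library weights and ran from -0.0972 to 0.149 on leaving out single libraries; in the same way HOXA3 ran from -0.107 to 0.0002, HOXA4 from -0.121 to 0.0495, HOXA5 from -0.139 to 0.0570, HOXB5 from -0.142 to 0.0228 and HOXB6 from -0.0314 to 0.0601. HOXA10 stayed between -0.28 and -0.15, with adjusted p from 0.498 to 0.924, and had an unadjusted p under 0.05 in 6 of the 20. The exact permutation test of the genes under the limit, rerun without each library after the data were seen, gave 0 genes each time, but its smallest adjusted p for a single gene was 0.135, so this count says nothing about stability.

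The count over all genes, 32, moved to 21 with no filter, 20 without a trend, 56 with library weights and 65 with voom on recovered reads, and the cause was not tested. On leaving out single libraries it ran from 17 to 38, being 17 when GW3965 library 2 or 4 was dropped, 18 when DMSO library 3 was and 19 when GW3965 library 3 was. The number of HOX genes over the level limit was 16 at 0.5 RPKM, 12 at 1 and 28 at 0.1. With the replicate number as a block, 16 genes and 0 HOX genes passed. Same-numbered libraries did not deviate together (correlations -0.138 to 0.160), and 1 of the 5 numbers correlated best with its own. The main fit therefore used no pairing, but this check cannot tell whether same-numbered libraries were handled in parallel. For HOX genes under 0.5 RPKM the number of libraries, and not the depth alone, limits the test.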
